A study of Homo sapiens with 8 samples.

Results

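The 10 genes described here encode enzymes that make serine, proline and asparagine and that handle folate-bound one-carbon units in the mitochondrion. They are *PHGDH*, *PSAT1*, *PSPH*, *SHMT2*, *MTHFD2*, *MTHFD1L*, *ALDH1L2*, *ALDH18A1*, *PYCR1* and *ASNS*, taken by gene name, and the list was drawn up with earlier results of these data known. All 10 are among the 63241 genes of the NCI-H716 tables. Of the 28043 genes used from the HCT116 table, which ends partway along chromosome 9, 5 are members: *PHGDH*, *PSPH*, *MTHFD2*, *MTHFD1L* and *ASNS*. Every member in either table passed the filter on low counts.

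The study asked how Z325 (ZINC000101867325), a small molecule selected by docking against fibroblast growth factor receptors, changed the transcriptome of colorectal cancer cells. RNA was sequenced in 8 libraries, with 2 control and 2 Z325-treated libraries for HCT116, an adherent colorectal carcinoma line, and the same for NCI-H716, a colorectal adenocarcinoma line with endocrine features. The labels call the treated libraries "Test" and do not say what the control cells received, and the paper, which settles on a working concentration after a viability assay, gives neither a dose nor a duration in its account of the RNA-seq. The libraries were amplified by SMART-Seq2 from small numbers of cells, and the study calls the repeats biological.

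Serine is built from a glycolytic intermediate in 3 steps, catalysed by PHGDH, PSAT1 and PSPH. SHMT2 then splits serine in the mitochondrion into glycine and a folate-bound one-carbon unit, which MTHFD2, MTHFD1L and ALDH1L2 oxidise or release. ALDH18A1 and PYCR1 turn glutamate into proline, and ASNS makes asparagine from aspartate and glutamine. Many of these genes are known targets of ATF4, the transcription factor of the amino acid and integrated stress responses.

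Total counts ran from 10210239 to 19738840 in NCI-H716. In HCT116 3 libraries held between 13183792 and 13396225 counts on the listed genes, and Z325 replicate 2 held only 3434620. Levels below are CPM, read counts scaled to a common library size, after TMM normalization, and fold changes compare Z325-treated with control libraries on the log2 scale with a standard error (SE). A gene is called where edgeR's quasi-likelihood test gave an adjusted p under 0.05. NCI-H716 expressed *EPCAM* at 38.6 to 50.2 CPM and the enteroendocrine hormone gene *GCG* at 1642 to 2541 CPM, with *KRT8* at 274 to 361, *KRT18* at 270 to 334 and *CDH17* at 119 to 147 CPM, while *CDX1* was at 0, *CDH1* at most at 0.53 CPM and the endocrine factor gene *NEUROD1* at most at 0.076 CPM. HCT116 expressed *EPCAM* at 1424 to 1655 CPM, with *VIL1*, *CDX1* and *CDH17* at most at 0.573 CPM. Of 8 blood and stromal markers, none exceeded 2.52 CPM in NCI-H716, and the 3 listed for HCT116 reached at most 0.626 CPM.

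Promoter sequence was taken for the 3 members that were called in either line. The windows come from RefSeq on GRCh38.p14 and run 5′ to 3′ on the gene's strand, from 250 bases before to 50 after an annotated start. Capitals mark a match, on either strand, to TGATGNAA, the core of the amino acid response element that ATF4 binds, or to TGACNNNGC, the core of the antioxidant response element. A 28-base stretch around a match of the first motif is given for *MTHFD1L* as well.
ASNS, chr7:97872359-97872658, minus strand: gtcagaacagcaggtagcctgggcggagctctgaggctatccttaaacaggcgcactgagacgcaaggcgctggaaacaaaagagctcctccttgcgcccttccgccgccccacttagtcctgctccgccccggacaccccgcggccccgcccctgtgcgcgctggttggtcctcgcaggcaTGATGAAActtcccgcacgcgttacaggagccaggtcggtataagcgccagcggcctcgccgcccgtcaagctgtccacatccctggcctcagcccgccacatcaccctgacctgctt
PHGDH, chr1:119711684-119711983, plus strand: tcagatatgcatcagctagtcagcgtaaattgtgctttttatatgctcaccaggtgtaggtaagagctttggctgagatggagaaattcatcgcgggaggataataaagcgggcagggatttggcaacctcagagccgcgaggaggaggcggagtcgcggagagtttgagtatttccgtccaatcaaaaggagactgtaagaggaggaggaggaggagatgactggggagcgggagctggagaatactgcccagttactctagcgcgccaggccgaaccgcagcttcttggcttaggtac
MTHFD2, chr2:74198365-74198664, plus strand: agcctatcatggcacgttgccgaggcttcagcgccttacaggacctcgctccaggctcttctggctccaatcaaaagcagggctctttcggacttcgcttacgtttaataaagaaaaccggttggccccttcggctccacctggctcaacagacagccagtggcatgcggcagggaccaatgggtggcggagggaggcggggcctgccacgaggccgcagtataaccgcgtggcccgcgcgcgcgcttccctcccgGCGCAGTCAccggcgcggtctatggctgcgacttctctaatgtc
MTHFD1L, chr6:150866347-150866374, plus strand: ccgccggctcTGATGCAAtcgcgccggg

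The *ASNS* match is TGATGAAA, starting at position -68 from the annotated start, and a second annotated *ASNS* window lacks it. The *MTHFD2* match lies on the opposite strand just after the start, and the *PHGDH* window holds neither motif. TGATGCAA starts at position -129 in an *MTHFD1L* window and lies in 2 more windows that overlap it, but not in a separate one farther along the gene. Windows were found for 6 of the 10 members, and those of *PSAT1* and *ALDH18A1* hold no match. Of all 35116 RefSeq windows of this length, 3.62% hold TGATGNAA and 13.3% hold TGACNNNGC, so the second motif is common by letters alone. A match describes the sequence and not binding, which was not measured.

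In NCI-H716, Z325 was accompanied by more RNA of the first enzyme of serine synthesis and of asparagine synthetase. *ASNS* rose 2.32-fold and *PHGDH* 2.13-fold, and they were the 2 of 10 members called, both higher. Of all 14142 genes tested, 0.403% were called higher and 0.099% lower. Without adjustment, 6 of 10 members were higher and 0 lower at p under 0.05, beside 7.59% of all genes that were higher and 9.27% that were lower. Both treated libraries lay above both controls for 6 members, against 24.3% of all genes, and below both for 2 members, against 25.1%. The median log2 fold change was 0.45 over the members and -0.01 over all genes tested. These are RNA levels of small numbers of cells pooled in each library, in which fewer cells that express a gene and less of its RNA per cell cannot be told apart.

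In HCT116 1 of 5 members was called, *MTHFD2*, which rose from a mean of 534 to 799.9 CPM. Of the 6491 genes tested, 2.83% were called higher and 2.94% lower. Without adjustment, 2 members were higher and 0 lower at p under 0.05, beside 11.2% and 12.7% of all genes, and for 3 of 5 both treated libraries lay above both controls, beside 24.8% of all genes. The median log2 fold change of the 5 was 0.39, and that of all genes was -0.03.

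**Figure D1:**
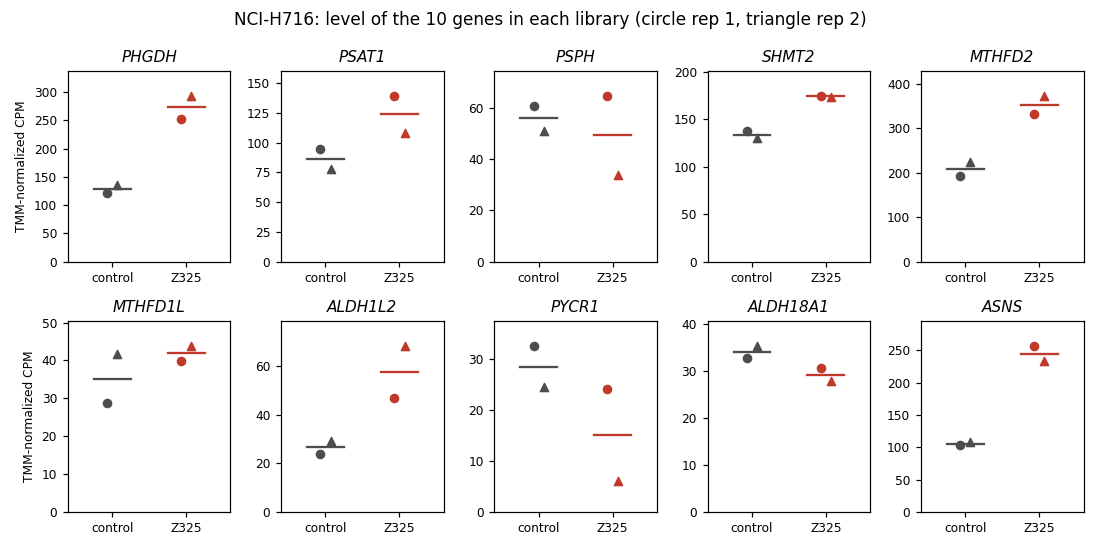
Level of the 10 genes in NCI-H716, in TMM-normalized CPM on axes that start at 0. Each point is 1 library (circle replicate 1, triangle replicate 2) and the line is the group mean. Both treated libraries lie above both controls for *PHGDH*, *PSAT1*, *SHMT2*, *MTHFD2*, *ALDH1L2* and *ASNS*, and Z325 replicate 2 lies far below the rest for *PYCR1* and below them for *PSPH*.

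Serine synthesis was followed from its first step, and gene positions here and below are those of GENCODE v44 on GRCh38. *PHGDH* (chr1:119648411-119744218, plus strand) encodes phosphoglycerate dehydrogenase, the entry enzyme. In NCI-H716 it measured 121.5 and 135.7 CPM in control and 252.7 and 293.7 CPM in Z325-treated libraries. Both treated libraries were high and both controls low, far apart from each other. This was a log2 fold change of 1.09 (SE 0.17, adjusted p = 0.0189 by edgeR). In HCT116 the levels were 35.9 and 48.8 CPM in control and 68.0 and 68.2 CPM in treated libraries. The treated libraries were again higher without overlap, with the controls further from each other than the treated pair. In edgeR the log2 fold change of 0.69 (SE 0.22) had an adjusted p of 0.108 and was not called. DESeq2 gave 0.0298, in a fit that called 11.8% of all genes, against 5.78% in edgeR. Limma on log2(FPKM + 1) and log2(FPKM + 0.1) gave adjusted p-values of 0.227 and 0.21. Without NCI-H716 control replicate 1 the log2 fold change in that line was 1.02. The call was lost in that fit, where calls fell among all genes too. With every NCI-H716 library kept, it was lost in limma on log2(FPKM + 1) and log2(FPKM + 0.1), at adjusted p-values of 0.123 and 0.144. Each of those fits called 0.0424% of all genes.

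*PSAT1* (chr9:78297125-78330093, plus strand), the aminotransferase of the second step, has values in NCI-H716 only. It measured 94.5 and 77.8 CPM in control and 139.5 and 107.9 CPM in treated libraries. The treated libraries were higher than both controls, but the spread within each pair was wide relative to the gap between them. It was not called, at a log2 fold change of 0.52 (SE 0.19, adjusted p = 0.225 by edgeR).

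*PSPH* (chr7:56011051-56051604, minus strand), the phosphatase that completes serine, showed no shared direction. In NCI-H716 it measured 60.7 and 51.1 CPM in control and 64.8 and 33.8 CPM in treated libraries. The treated libraries enclosed the controls, one above and the other below. On the log2 scale the change was -0.19 (SE 0.27, adjusted p = 0.773), and it was 0.23 without Z325 replicate 2 and -0.72 without Z325 replicate 1. In HCT116 it measured 164.7 and 186.5 CPM in control and 198.2 and 167.9 CPM in treated libraries. These groups overlapped too, with a log2 fold change of 0.06 (SE 0.15, adjusted p = 0.853). *PSPH* has pseudogene copies, so its counts are uncertain.

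**Figure D2:**
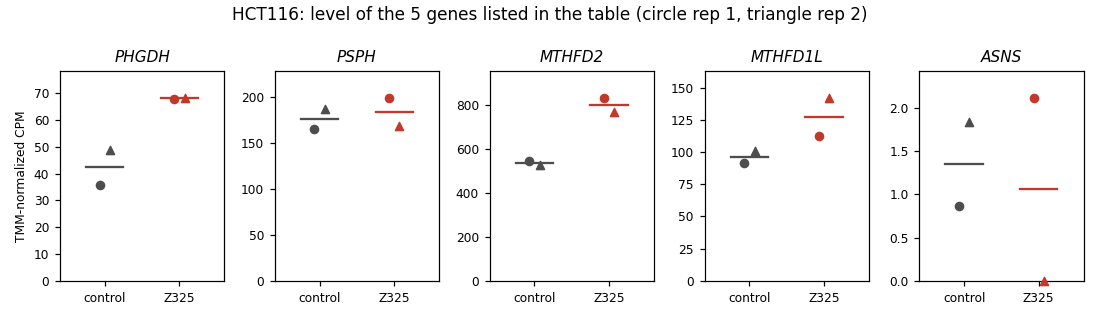
Level of the 5 members listed for HCT116, in TMM-normalized CPM on axes that start at 0, with 1 point per library and the group mean as a line. *MTHFD2*, *PHGDH* and *MTHFD1L* have both treated libraries above both controls, and *ASNS* stays below 2.2 CPM with 1 treated library at 0.

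The mitochondrial one-carbon enzymes were the largest group of members. *MTHFD2* (chr2:74186172-74217565, plus strand) encodes the mitochondrial methylenetetrahydrofolate dehydrogenase and cyclohydrolase. In HCT116 it measured 543.5 and 525.2 CPM in control and 830.2 and 769.5 CPM in treated libraries. Each pair was tight and the pairs were well separated. In log2 terms the rise was 0.58 (SE 0.12, adjusted p = 0.0340 by edgeR). The call was lost without either control, in fits that leave a single control library and where calls fell among all genes too. With every library kept, it was lost in limma on log2(FPKM + 1) and log2(FPKM + 0.1), at adjusted p-values of 0.0887 and 0.101. Those fits called 0.724% and 0.57% of all genes. The log2 fold change stayed between 0.51 and 0.66 whichever library was left out.

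In NCI-H716 *MTHFD2* measured 193.8 and 223.7 CPM in control and 332.5 and 373.9 CPM in treated libraries. Both treated libraries were again above both controls by more than the spread of either pair. A log2 fold change of 0.76 (SE 0.16) was not called in edgeR, at an adjusted p of 0.0861. It was called by DESeq2, at an adjusted p of 0.00676, in a fit that called 2.57% of all genes, against 0.502% in edgeR. Limma on log2(FPKM + 1) and log2(FPKM + 0.1) did not call it, at adjusted p-values of 0.218 and 0.237. Of the exon bases of *MTHFD2*, 11.6% overlap *SLC4A5* on the opposite strand, so reads of the 2 genes could not be told apart there.

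*ALDH1L2* (chr12:105019784-105107643, minus strand), the mitochondrial formyltetrahydrofolate dehydrogenase, measured 24.0 and 29.4 CPM in control and 46.9 and 68.4 CPM in treated NCI-H716 libraries. It was higher in both treated libraries, which differed from each other more than the controls did. Its log2 fold change was 1.11 (SE 0.23), close to that of *PHGDH*, but edgeR gave an adjusted p of 0.0739. DESeq2 gave 0.00270.

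*SHMT2* (chr12:57229573-57234935, plus strand), the mitochondrial serine hydroxymethyltransferase, measured 137.2 and 130.6 CPM in control and 175.0 and 173.7 CPM in treated NCI-H716 libraries. Both pairs were tight and did not overlap, and the gap between them was small in fold. It was not called, at a log2 fold change of 0.38 (SE 0.16, adjusted p = 0.262 by edgeR).

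*MTHFD1L* (chr6:150865679-151101887, plus strand), the mitochondrial formyltetrahydrofolate synthetase that releases formate, measured 28.6 and 41.7 CPM in control and 39.9 and 43.8 CPM in treated NCI-H716 libraries. The treated libraries lay just below and just above the higher control, so the groups overlapped. Its log2 fold change was 0.26 (SE 0.22, adjusted p = 0.587), and it was 0.01 without control replicate 1 and 0.56 without control replicate 2. In HCT116 the levels were 91.6 and 101.1 CPM in control and 112.5 and 141.8 CPM in treated libraries. The treated libraries were higher there without overlap, led by the shallow Z325 replicate 2. The log2 fold change was 0.39 (SE 0.18, adjusted p = 0.219 by edgeR), and it was 0.25 without that library.

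The proline enzymes, measured in NCI-H716 only, lay lower in treated libraries, and neither was called. *ALDH18A1* (chr10:95605941-95656711, minus strand), which starts proline synthesis from glutamate, measured 32.7 and 35.3 CPM in control and 30.5 and 27.8 CPM in treated libraries. The groups did not overlap but were close. This gave a log2 fold change of -0.22 (SE 0.19, adjusted p = 0.595 by edgeR).

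*PYCR1* (chr17:81932384-81942412, minus strand), the mitochondrial reductase of the last step, measured 32.6 and 24.4 CPM in control and 24.1 and 6.03 CPM in treated libraries. Z325 replicate 1 was level with the lower control, and Z325 replicate 2 alone was far below. The log2 fold change was -0.94 (SE 0.48, adjusted p = 0.345 by edgeR). It was -0.23 without Z325 replicate 2 and -2.23 without Z325 replicate 1, so a single library set its size. Without a count filter edgeR called *PYCR1* lower, at an adjusted p of 0.0148, in a fit that called 2.43% of all genes. It was also called lower with a replicate block, where 16.9% of all genes were called. Of its exon bases, 14.1% are shared with *MYADML2* on the same strand and 15.6% with a gene on the opposite strand.

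*ASNS* (chr7:97851677-97872542, minus strand), the asparagine synthetase gene, measured 103.4 and 108.0 CPM in control and 257.0 and 233.3 CPM in treated NCI-H716 libraries. Both pairs were tight and lay far apart. This was a log2 fold change of 1.21 (SE 0.16, adjusted p = 0.00976 by edgeR), the largest among the 10 members in this fit. Without control replicate 1 it was 1.19. *ASNS* lost its call in that fit, where calls fell among all genes too. With every library kept, it lost its call in limma on log2(FPKM + 1) and log2(FPKM + 0.1), at adjusted p-values of 0.0893 and 0.106. Each of those fits called 0.0424% of all genes.

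In HCT116 *ASNS* was almost uncounted, with 12 and 24 counts in control libraries and 27 and 0 in treated libraries. The 0 came from the shallow Z325 replicate 2, where a count of 0 allows up to 0.873 CPM before TMM scaling, counting error only. The log2 fold change was -0.10 (SE 1.12, adjusted p = 0.972), and at this depth no difference was detectable. The lncRNA gene ENSG00000284707 lies on the same strand and shares 2374 of the 2385 exon bases (99.5%) of the main *ASNS* transcript, the MANE Select transcript of 13 exons. That gene held 28 and 6 counts in control and 10 and 2 in treated HCT116 libraries. In NCI-H716, where RSEM divides shared reads between transcripts, it held 63 and 36 counts in control and 93 and 77 in treated libraries, beside 1114 to 4642 for *ASNS*. How reads in shared exons were handled for the HCT116 table is not given in the sources used here, and the part of the shared exons in the low HCT116 counts was not tested.

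**Figure D3:**
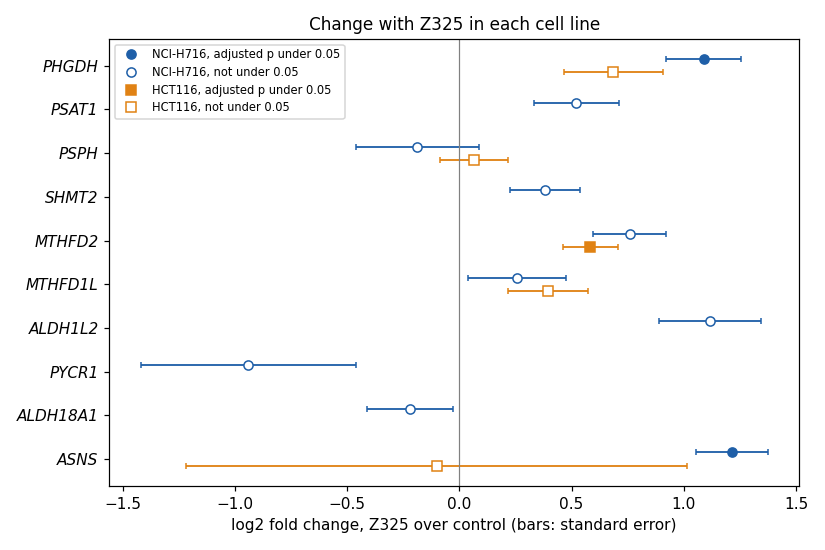
Log2 fold change, Z325 over control, of each member in NCI-H716 (circles) and HCT116 (squares), with the standard error of the edgeR fit as bars. Filled symbols mark *PHGDH* and *ASNS* in NCI-H716 and *MTHFD2* in HCT116, which had an adjusted p under 0.05, and the bar of *ASNS* in HCT116 is the widest.

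For the 5 members in both tables, the response of one line was compared with that of the other by an interaction term of line with treatment, fitted to all 8 libraries. None was called by edgeR, where 0.0654% of the 7642 genes tested were called. DESeq2 called 0 of 5 as well, where 1.79% of all genes were called. The difference in log2 fold change, NCI-H716 minus HCT116, was 0.39 (SE 0.24, adjusted p = 0.485) for *PHGDH* and 0.17 (SE 0.20, adjusted p = 0.757) for *MTHFD2*. It was -0.15 (SE 0.29) for *MTHFD1L*, -0.27 (SE 0.36) for *PSPH* and 0.98 (SE 0.64) for *ASNS*, with adjusted p-values of 0.899, 0.796 and 0.506. The *ASNS* value rests on HCT116 counts of 12 and 24 in control and 27 and 0 in treated libraries. With single HCT116 libraries left out, it ran from 0.39 to 7.72, so it is poorly determined. A difference in response between the lines was thus shown for none of the 5.

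Levels were set side by side on a shared scale, CPM over the genes in both tables, without a test since the counting programs differed. *PHGDH* was at 37.3 and 48.2 in control HCT116 and at 282 and 314 in control NCI-H716 libraries. Even the treated HCT116 libraries, at 64.9 and 69.3, stayed far below the NCI-H716 controls. *MTHFD2* was at 563 and 519 in control HCT116 and 450 and 517 in control NCI-H716 libraries, which is close. *PSPH* was at 171 and 184 in HCT116 and 141 and 118 in NCI-H716 controls.

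Levels of different genes were compared per length, as the authors' TPM in NCI-H716. In control libraries *MTHFD2* stood highest at 100.4 ± 14.5 TPM (SD, n = 2), then *PHGDH* at 64.2 ± 5.83, *ASNS* at 56.6 ± 5.56 and *SHMT2* at 55.1 ± 0.891. *PHGDH* and *ASNS* overlapped, as did *ASNS* and *SHMT2*. *PSAT1* (33.2 ± 4.44), *PSPH* (24.96 ± 3.82), *MTHFD1L* (14.6 ± 4.26), *PYCR1* (13.7 ± 2.38), *ALDH18A1* (8.28 ± 0.467) and *ALDH1L2* (3.50 ± 0.191) followed, and among these neighbours only *MTHFD1L* and *PYCR1* overlapped. With Z325 the leading genes were *MTHFD2* at 185.6 ± 22.0 TPM, *PHGDH* at 135.6 ± 12.0 and *ASNS* at 129.9 ± 11.1, and *SHMT2* stood apart below them at 70.0 ± 0.841. Summed over the 10 members, TPM was 361 and 388 in control and 625 and 627 in treated libraries, so both treated sums lay above both controls. Abundant genes such as *MTHFD2*, *PHGDH* and *ASNS* weigh most in this sum. Mean TPM with Z325 was lower than in control for *PSPH* (21.9, groups overlapping), *PYCR1* (7.3) and *ALDH18A1* (6.85).

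Several members have a counterpart in another compartment or a close relative, and none of these was called in a line where it was tested. *MTHFD1* and *SHMT1* are not listed for HCT116, and *PYCR3* was not tested there. *MTHFD1*, the cytosolic enzyme that carries the activities of *MTHFD2* and *MTHFD1L*, measured 299.9 and 326.3 CPM in control and 229.2 and 213.5 CPM in treated NCI-H716 libraries. It was lower in both treated libraries, at a log2 fold change of -0.50 (SE 0.16, adjusted p = 0.175 by edgeR). The ratio of *MTHFD2* to *MTHFD1* in TPM was 0.390 and 0.416 in control and 0.919 and 0.986 in treated libraries. The ratios of the treated pair lay well above those of the controls, and the RNA of the 2 genes was nearly level with Z325.

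*SHMT1*, the cytosolic hydroxymethyltransferase, had a log2 fold change of -0.22 (SE 0.19, adjusted p = 0.586 by edgeR) in NCI-H716. The ratio of *SHMT2* to *SHMT1* in TPM was 5.04 and 4.91 in control and 8.10 and 7.56 in treated libraries, without overlap. *MTHFD2L*, a mitochondrial relative of *MTHFD2*, went in opposite directions in the lines without a call in either. It measured 49.0 and 49.5 CPM in control and 71.4 and 87.1 CPM in treated HCT116 libraries, a log2 fold change of 0.68 (SE 0.20, adjusted p = 0.0819). In NCI-H716 it measured 24.5 and 20.0 CPM in control and 17.3 and 14.6 CPM in treated libraries, a log2 fold change of -0.48 (SE 0.23, adjusted p = 0.312). The interaction for *MTHFD2L* was -1.18 (SE 0.31) with an adjusted p of 0.164 in edgeR and was not called. The ratio of *MTHFD2* to *MTHFD2L* in TPM overlapped in HCT116, at 9.53 and 9.10 in control and 9.98 and 7.58 in treated libraries. In NCI-H716 this ratio was 7.34 and 11.4 in control and 19.1 and 21.7 in treated libraries, without overlap.

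*ALDH1L1*, the cytosolic counterpart of *ALDH1L2*, was low, at 1.82 to 6.01 CPM in NCI-H716 and 2.07 to 5.44 CPM in HCT116. Its log2 fold change was -0.05 (SE 0.52) in NCI-H716 and 0.77 (SE 0.58) in HCT116. The ratio of *ALDH1L2* to *ALDH1L1* in TPM overlapped, at 6.85 and 1.90 in control and 5.74 and 6.38 in treated NCI-H716 libraries. *PYCR3*, a relative of *PYCR1*, had a log2 fold change of -0.11 (SE 0.35) in NCI-H716. Neither gene was called, with adjusted p-values from 0.474 to 0.975 in edgeR.

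**Figure D4:**
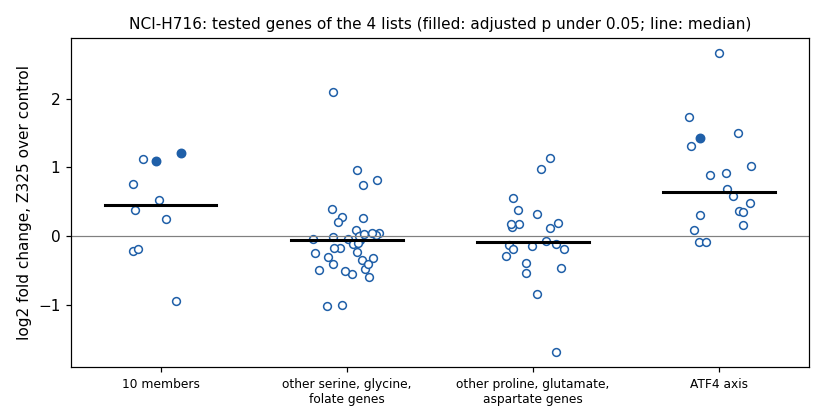
Log2 fold change, Z325 over control, in NCI-H716 for each tested gene of the 10 members, of the other serine, glycine and folate genes, of the other proline, glutamate and aspartate genes and of the ATF4 axis. Lines are medians (0.45, -0.05, -0.09 and 0.63), and filled points had an adjusted p under 0.05 (*ASNS* and *PHGDH* among the members, *TRIB3* in the ATF4 axis).

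Of 43 further serine, glycine and folate genes, 37 were tested in NCI-H716 and 0 were called by edgeR. Their median log2 fold change was -0.05, and 4 lay higher and 5 lower with an unadjusted p under 0.05, which 7.59% and 9.27% of all genes did. *CTH*, the cystathionine lyase that makes cysteine from serine-derived cystathionine, and *PFAS*, a purine synthesis enzyme, had the smallest p-values. *CTH* measured 30.1 and 29.7 CPM in control and 52.8 and 52.6 CPM in treated libraries, a log2 fold change of 0.82 (SE 0.18, adjusted p = 0.0917). *PFAS* was lower, at 41.0 and 32.3 CPM in control and 21.5 and 14.8 CPM in treated libraries, with a log2 fold change of -1.02 (SE 0.24, adjusted p = 0.109).

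In HCT116 17 of the 20 listed genes of this set were tested, with 1 called higher and 1 lower, beside 2.83% and 2.94% of all genes, and a median of 0.15. *CTH* rose from 42.1 and 34.6 CPM to 78.8 and 71.0 CPM, a log2 fold change of 0.97 (SE 0.21, adjusted p = 0.0356 by edgeR). *SFXN1*, a mitochondrial serine transporter, fell from 764 and 798 CPM to 534 and 490 CPM, a log2 fold change of -0.61 (SE 0.12, adjusted p = 0.0299). In both genes the pairs were tight and did not overlap.

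Of 27 further genes of proline, glutamate, aspartate and alanine metabolism, 22 were tested in NCI-H716 and 9 in HCT116, and 0 were called by edgeR in either line. Before adjustment 3 were higher and 1 lower in NCI-H716, and 0 were higher and 2 lower in HCT116, each with p under 0.05. Of all genes 7.59% were higher and 9.27% lower by that measure in NCI-H716, and 11.2% and 12.7% in HCT116. The medians were -0.09 and -0.52. In NCI-H716 *GPT2*, the mitochondrial alanine aminotransferase, measured 15.3 and 17.3 CPM in control and 30.6 and 33.4 CPM in treated libraries, a log2 fold change of 0.98 (SE 0.21, adjusted p = 0.0813). *P4HA2*, a collagen prolyl hydroxylase subunit, had 1.13 (SE 0.28, adjusted p = 0.118) there. In HCT116 *SLC1A3*, an aspartate and glutamate transporter, measured 27.3 and 24.8 CPM in control and 12.4 and 12.0 CPM in treated libraries, a log2 fold change of -1.09 (SE 0.27, adjusted p = 0.0564). *GLUL*, the glutamine synthetase, had -0.46 (SE 0.16, adjusted p = 0.136).

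The ATF4 axis, made up of the eIF2α kinases, eIF2α (*EIF2S1*), its phosphatase subunits, *ATF4* and related or target genes, was tested for 18 of 18 genes in NCI-H716. In edgeR 1 was called higher and 0 lower, beside 0.403% and 0.099% of all genes, and 9 were higher and 0 lower when the p was not adjusted, beside 7.59% and 9.27%. Both treated libraries exceeded both controls for 13, beside 24.3% of all genes, and the median log2 fold change was 0.63. *TRIB3*, a pseudokinase gene and ATF4 target, rose from 80.4 and 89.6 CPM to 220.7 and 238.3 CPM, a log2 fold change of 1.43 (SE 0.16, adjusted p = 0.00410). *ATF4* itself measured 169.2 and 181.1 CPM in control and 280.8 and 379.2 CPM in treated libraries, a log2 fold change of 0.91 (SE 0.18, adjusted p = 0.0665). *DDIT3*, which encodes CHOP, had a log2 fold change of 0.90 (SE 0.17, adjusted p = 0.0570), and 27.2% of its exon bases overlap *MARS1* on the opposite strand.

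Of the ATF4 axis only 6 genes are listed for HCT116, without *ATF4*, *DDIT3* or *TRIB3*, and 0 of the 5 tested were called by edgeR, while without adjustment 1 was lower and 0 higher, beside 12.7% and 11.2% of all genes. The smallest p-values there belonged to 2 eIF2α kinases, *EIF2AK1* (HRI) at a log2 fold change of -0.47 (SE 0.14, adjusted p = 0.0927) and *EIF2AK3* (PERK) at 0.50 (SE 0.37, adjusted p = 0.465).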

How the data were processed

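RNA-seq of 8 libraries was analysed, 2 per cell line and treatment, with groups taken from the sample titles. For NCI-H716 the authors deposited RSEM output per library, with expected counts, TPM and FPKM for 63241 genes, and GENCODE v44 supplied symbols for 62666 of them. The HCT116 file that the authors deposited holds raw read counts with gene lengths, and of its 28047 lines 4 broken or unfinished ones were left out. The study's methods describe trimming, STAR alignment to GRCh38 and RSEM. The submitters' processing notes name Bowtie2 2.5.0 and featureCounts, so the tools behind the HCT116 table are uncertain.

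Expected counts were rounded. Each line was fitted alone with edgeR 4.0.16 (filterByExpr, TMM, quasi-likelihood test, no replicate block), with Benjamini-Hochberg adjustment over all genes tested. SEs were derived from the test statistic. With 2 libraries per group, precision is limited by the spread between libraries. Biological coefficients of variation were 0.245 in HCT116 and 0.203 in NCI-H716. HCT116 values cover the listed genes only, and its TPM and FPKM were computed here from counts and lengths. The interaction was fitted over all 8 libraries.

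Alternatives were DESeq2 1.42.0, library-size scaling, no count filter or at least 10 counts in every library, limma 3.58.1 on log2(FPKM + 1) or log2(FPKM + 0.1), a replicate block and leaving out each library. On simulated data with 200 genes changed 4-fold, edgeR recovered 84% over 6302 genes for HCT116 and 91.5% over 13829 for NCI-H716, with 6 false calls each. For the interaction it recovered 76% of 225 changed genes over 5008, with 3 false calls. Every simulated gene of a line had the same dispersion. The members changed by less than 4-fold, with *ASNS* in NCI-H716 the largest at 2.32-fold. These rates do not measure recovery of changes of that size. Fits ran in R 4.3.3. Tables and plots were made in Python 3.11.15 (matplotlib 3.10.9, pandas 2.3.3).

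The members and gene lists were chosen with earlier results of these data known. All 10 members, their counterparts, *ATF4* and *DDIT3* are named, except a gene that is not reported here. Of each further list, up to 6 called genes per line are named, or the 2 with the smallest p where none was called.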

Additional observations from a re-analysis of the deposited data

How the results depend on the processing

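The log2 fold changes of single members made up 20 results and 224 combinations of result and alternative. Of these, 191 kept their direction and side of the threshold. Most of the 20 results were not called at the outset, so for them this mostly means staying uncalled. A call was lost in 10 combinations, all of the called results, *ASNS* and *PHGDH* in NCI-H716 and *MTHFD2* in HCT116. These losses came with both limma fits and with control libraries left out. The counts of called genes are not among the 224 combinations and are given below. The cause of the changes was not tested. In NCI-H716 0.502% of all genes were called, 2.57% with DESeq2, 2.43% without a count filter, 16.9% with a replicate block, 0.7% with library size alone, 0.512% with at least 10 counts in every library and 0.0424% with either limma fit. Members called there (2, both higher) became 4 higher with DESeq2 and 0 with limma. They became 4 higher and 1 lower without a filter (5), and 6 higher and 1 lower with the block (7, the lower one *PYCR1*). Other pathway genes called there (1 higher) became 10 with DESeq2 (9 higher), 11 without a filter (10 higher) and 0 with limma. They became 3 with library size alone or the minimum of 10 (3 higher) and 22 with the block (15 higher, 7 lower). In HCT116 5.78% of all genes were called, 11.8% with DESeq2, 4.61% without a filter, 12.6% with the minimum of 10 and 0.724% or 0.57% with limma. Members called (1 higher) became 2 higher with DESeq2 and 0 with limma. Other pathway genes called (2) became 6 with DESeq2 (3 higher) and 0 with limma. They became 4 without a filter or with the minimum of 10 (1 higher, 3 lower). The numbers called within each line also moved with libraries left out, among all genes as well. Such fits leave a group with a single library. Members differing between the lines stayed at 0 with DESeq2, library size alone, no filter, the block and each library left out, the alternatives run for them.

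Directions turned for 5 uncalled values when libraries were left out. The log2 fold change of *ASNS* in HCT116 ranged from -6.78, against a single library at 0 counts and so set by the prior count, to 0.67. That of *PSPH* ranged from -0.08 to 0.20 in HCT116 and from -0.72 to 0.23 in NCI-H716, and its difference between the lines from -0.77 to 0.14. The difference for *MTHFD1L* ranged from -0.34 to 0.15. A lone library was assumed to vary like the others.

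The replicate numbers are not stated to mark a shared batch. The deviation of replicate 1 from its group mean was correlated between control and Z325 over all genes tested. It gave 0.286 in NCI-H716 and -0.022 in HCT116. Each line holds only 2 same-numbered pairs, too few to establish a pairing. In HCT116 *ASNS* had no DESeq2 adjusted p and no value under the minimum of 10 counts.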
